A study of Mus musculus with 4 samples.

Results

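Cr2, Fcer2a and Ms4a1 encode surface proteins of mature follicular B cells, the resting B cells that fill lymphoid follicles. They were taken by gene symbol from a table of 4121 genes that the authors called as differing between inflamed distal colon of Elf4-KO and WT mice. All 3 genes were found. The mice were C57BL/6, aged 8 weeks, in both genotypes. Elf4-KO mice carry a knockout of Elf4, which encodes an Ets-family transcription factor. The labels do not say how the allele was made or which cells lost it. All mice of both genotypes received 3% DSS, the colitis-inducing polymer dextran sulfate sodium, which damages the epithelial lining, and colon was taken at day 6. RNA was sequenced from 2 Elf4-KO and 2 WT samples, and no colon without DSS was part of the comparison. The labels do not state if the 2 samples per genotype are separate animals.

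Follicular B cells recirculate between blood and lymphoid tissue, and in the colon they gather in small lymphoid patches of the wall. Cr2 encodes CD21, the receptor for C3 fragments fixed to antigen, which belongs to the B cell co-receptor and lowers the amount of antigen a B cell needs. In mice the same gene also makes the longer receptor CD35 by alternative splicing. Fcer2a encodes CD23, a C-type lectin that binds IgE with low affinity and marks follicular B cells. Ms4a1 encodes CD20, a protein that crosses the membrane several times and is present on B cells until they become plasma cells. Follicular dendritic cells, the stromal cells that hold antigen in a follicle, also carry the products of Cr2 and Fcer2a.

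The bases just before an annotated start are shown for Cr2 and Fcer2a, which were both lower in Elf4-KO colon. Elf4, the gene targeted in these mice, encodes an Ets factor, a family that binds around the core GGAA. The sequences are from RefSeq on GRCm38.p6, which covered 2 of the 3 genes. Each runs 5′ to 3′ over the 250 bases before an annotated start on the minus strand, at chr1:195176720-195176969 for Cr2 and chr8:3694175-3694424 for Fcer2a. Cr2 had 1 annotated start and Fcer2a had 3, and only the start nearest the 5′ end of the gene was read. Capitals mark GGAA and its reverse complement TTCC.
Cr2: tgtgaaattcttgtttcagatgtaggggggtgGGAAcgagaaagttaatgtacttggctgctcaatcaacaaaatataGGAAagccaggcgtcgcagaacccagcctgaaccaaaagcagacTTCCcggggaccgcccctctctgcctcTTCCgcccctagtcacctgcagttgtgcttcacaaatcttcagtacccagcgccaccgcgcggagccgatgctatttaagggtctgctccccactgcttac
Fcer2a: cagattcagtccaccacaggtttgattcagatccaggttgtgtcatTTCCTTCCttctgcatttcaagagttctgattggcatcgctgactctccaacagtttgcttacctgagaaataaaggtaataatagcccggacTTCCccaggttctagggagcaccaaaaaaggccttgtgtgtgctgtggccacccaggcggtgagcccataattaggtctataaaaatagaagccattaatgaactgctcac
GGAA, read on both strands, was found 4 times for Cr2 and 3 times for Fcer2a. Among 32851 promoters of the same length, 93.4% held it, with a median of 3 matches, so its presence did not set these genes apart. The longer form CGGAAG, which contains GGAA, was found once for Cr2, between 102 and 97 bases before the start, and not for Fcer2a. It was held by 13.6% of all promoters. Neither window held GAGGAA, a form bound by PU.1 and Spi-B that also contains GGAA and was held by 23.3% of promoters. Neither held the octamer ATGCAAAT, which was held by 1.6%. These matches describe letters in the window, and binding was not measured.

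Levels are the authors' FPKM, fragments scaled to transcript length and library size, deposited as 1 value per genotype. No SD, n or test of a genotype difference can therefore be given, the depth behind each value is unknown, and how far 1 sample sets a value cannot be seen. A gene is said to rise or fall where it stands in the authors' deposited table, whose values show that q stayed within 0.05 and the difference was no smaller than 2-fold. A total of 100% of the rows are called by construction, so the presence of the 3 genes is no measurement of its own. The direction is read against 52.0% of rows that were lower and 48.0% that were higher in Elf4-KO colon.

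All 3 genes fell in Elf4-KO colon, each with q = 0.000372, a floor shared by 2233 rows of the authors' deposited table. Listed genes named below without a q had this same q there. By fold, the co-receptor gene Cr2 fell most and the CD20 gene Ms4a1 least. In this whole tissue, fewer B cells and less RNA per B cell cannot be told apart.

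Cr2 (ENSMUSG00000026616), at chr1:195136811-195176716 on the minus strand of GRCm38, had 1.28 FPKM in Elf4-KO colon, against 9.07 FPKM in WT colon. The levels differed 7.06-fold, and Elf4-KO colon held 14.2% of the WT level. The value sums over the gene, so CD21 and CD35 forms are not separated. No other annotated gene overlapped this locus.

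Fcer2a (ENSMUSG00000005540), at chr8:3681737-3694175 on the minus strand, had 0.842 FPKM in Elf4-KO colon, against 4.62 FPKM in WT colon. The difference was 5.49-fold, with 18.2% of the WT level present. It was the lowest of the 3 in both genotypes, and its Elf4-KO level lay above those of only 10.1% of listed genes in that genotype. Its locus also overlapped no other annotated gene.

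Ms4a1 (ENSMUSG00000024673) had 5.62 FPKM in Elf4-KO colon, against 18.8 FPKM in WT colon. The difference was 3.35-fold, with 29.8% of the WT level present. The annotated gene spans chr19:11249675-11266241 on the minus strand, whereas the table assigns it the broader locus chr19:11196817-11299886. That locus takes in the antisense gene 4930526L06Rik and the family members Ms4a12 and Ms4a5, none of them listed. The labels do not say whether the library kit marked strand, so reads of the antisense gene cannot be told apart from those of Ms4a1.

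**Figure D1:**
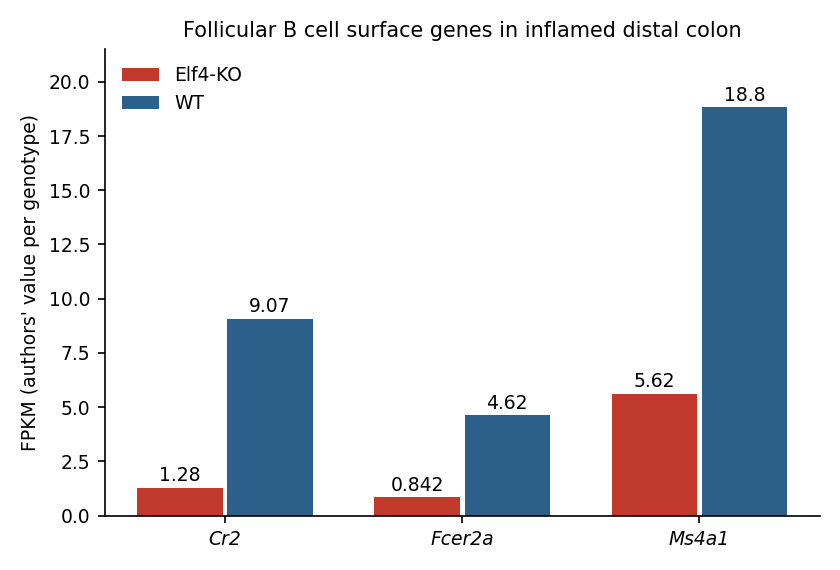
Bars show the FPKM of each gene on a linear axis from 0, with the Elf4-KO value left of the WT value; each bar is the authors' single value per genotype, so there are no error bars. Each Elf4-KO bar stands below its WT bar, from 1.28 against 9.07 FPKM for Cr2 to 5.62 against 18.8 FPKM for Ms4a1.

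The order of the levels per transcript length was the same in both genotypes, with Ms4a1 highest, then Cr2, then Fcer2a. Without values per sample it cannot be said which neighbours in that order differ beyond their spread. The spacing changed with the unequal falls. The Ms4a1 level was 4.37 times that of Cr2 in Elf4-KO colon, against 2.08 times in WT colon. It was 6.67 times that of Fcer2a in Elf4-KO colon, against 4.08 times in WT colon. The level of Cr2 relative to Fcer2a was 1.53 in Elf4-KO colon and 1.96 in WT colon.

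The falls were not extreme among the 2141 listed genes that were lower. By fold, 569 of these (26.6%) fell more than Cr2 and 739 (34.5%) fell more than Fcer2a, counting the 45 listed at 0 in Elf4-KO colon. For Ms4a1 the number was 1208 (56.4%). Its fall was also smaller than the median fold of 3.71 among lower genes, which leaves out those at 0 in Elf4-KO colon. On the log2(FPKM + 1) scale, which understates changes at low levels, the Elf4-KO over WT ratios were -2.14 for Cr2, -1.61 for Fcer2a and -1.58 for Ms4a1. The median on that scale was -0.76 over all listed genes and -1.53 over the lower ones.

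**Figure D2:**
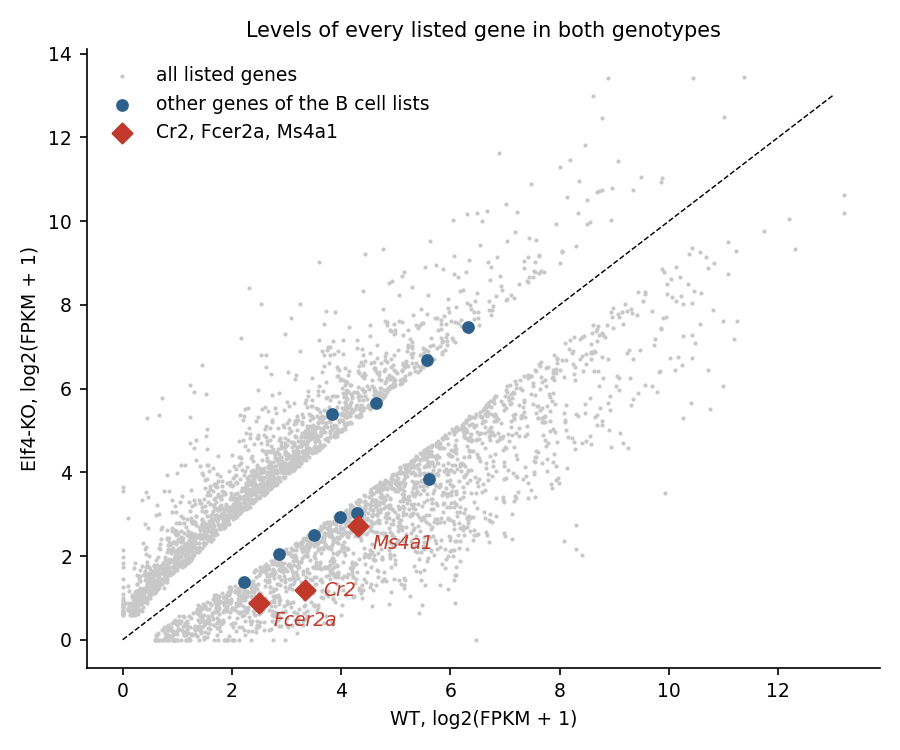
Each point is a listed gene, with its Elf4-KO level on the vertical axis and its WT level on the horizontal axis, both as log2(FPKM + 1); the dashed line marks equal levels, and the empty band along it is left by the 2-fold limit of the table. The red diamonds of Cr2, Fcer2a and Ms4a1 lie below the line inside the cloud of lower genes, and the 10 other genes of the B cell lists (blue) lie on both sides, 6 below and 4 above.

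The pattern of a gene here consists of 2 values, so many genes share it. The listed genes nearest to Cr2 in the plane of both log2(FPKM + 1) levels were Gm379, Trpm6 and Arhgef39, at distances of 0.101, 0.103 and 0.111 log2 units. Those nearest to Fcer2a were 2010300C02Rik, Tlr12 and Gsta1, at 0.034, 0.0679 and 0.071 log2 units, with q = 0.0209 for Gsta1 in the authors' deposited table. Those nearest to Ms4a1 were Etl4, Mgat3 and Rrm2, at 0.0466, 0.0551 and 0.073 log2 units. None of these 9 genes is in a B cell list.

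Other listed B cell genes moved in both directions. The B cell lists held 54 genes of the receptor and co-receptor, of transcription factors, of signalling and of survival and help, among them Cr2. Of these, 11 were listed, 7 lower and 4 higher, and their median log2 ratio was -0.85 beside -0.76 over the whole table. The other 43, including the defining B cell genes Cd79a, Cd79b and Pax5, are not in the table and are not analysed here. The name follicular B cell genes thus rests on the known roles of the members.

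Among the B cell receptor and co-receptor genes, 4 of 16 were listed. Besides Cr2, the IgM Fc receptor gene Fcmr fell to 4.70 FPKM in Elf4-KO colon, against 10.4 FPKM in WT colon (q = 0.0128 by the authors' deposited table). The inhibitory receptor genes Fcgr2b and Pirb, which myeloid cells also express, rose. Fcgr2b had 175.9 FPKM in Elf4-KO colon and 79.0 FPKM in WT colon, and Pirb had 41.1 FPKM in Elf4-KO colon and 13.2 FPKM in WT colon.

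All 3 listed genes of the 14 in the B cell signalling list fell. Blnk, the adaptor that couples the receptor to its kinases, had 13.4 FPKM in Elf4-KO colon and 48.1 FPKM in WT colon, a 3.60-fold difference close to that of Ms4a1. Ralgps2, an exchange factor for Ral GTPases, had 7.14 FPKM in Elf4-KO colon and 18.6 FPKM in WT colon (q = 0.00312 by the authors' deposited table), and its locus also overlaps Angptl1.

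Of the 11 survival and help genes, 2 were listed. Tnfrsf13c, the receptor for the B cell survival factor BAFF, fell to 3.11 FPKM in Elf4-KO colon, against 6.23 FPKM in WT colon (q = 0.0341 by the authors' deposited table). Il4ra, the interleukin-4 receptor chain, rose 2.19-fold. Of the 13 transcription factor genes, Spib fell 2.21-fold (q = 0.00312 by the authors' deposited table). Spib is also counted below among genes of follicle-associated epithelium. Spi1, which myeloid cells share, rose 2.08-fold (q = 0.00128 by the authors' deposited table). Cr2 and Fcer2a fell by larger folds than each of the 6 other lower genes of these lists, and no test of that difference was possible.

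Genes of the germinal centre list, most of which mark B cells that are mutating their receptors in a follicle, were lower where listed. Of 9 such genes, 4 were listed and 4 were lower, with a median log2 ratio of -1.56. Gcsam, a germinal centre signalling gene, had 0.464 FPKM in Elf4-KO colon and 3.94 FPKM in WT colon, an 8.48-fold difference. Rgs13, a regulator of G protein signalling, had 0.759 FPKM in Elf4-KO colon and 3.62 FPKM in WT colon (q = 0.00335 by the authors' deposited table). Cd38 fell 3.34-fold to 115 FPKM in Elf4-KO colon, against 384 FPKM in WT colon. It does not mark mutating B cells in mice, and many other cells express it. The count of 4 and the median include it.

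Genes that organise follicles moved in both directions. Of 16, 6 were listed, 3 lower and 3 higher. The lymphotoxin genes, whose products B cells use to maintain follicular stroma, fell. Which cells their transcripts came from was not measured. Ltb had 11.2 FPKM in Elf4-KO colon and 32.5 FPKM in WT colon, and Lta had 0.170 FPKM in Elf4-KO colon and 1.67 FPKM in WT colon (q = 0.024 by the authors' deposited table). The chemokine gene Ccl20 fell 3.14-fold (q = 0.0238 by the authors' deposited table). Cxcl13, the chemokine that draws B cells into follicles, rose 3.43-fold to 410.3 FPKM in Elf4-KO colon, against 119.7 FPKM in WT colon. The lymphocyte exit receptor S1pr1, which endothelium also expresses, rose 3.39-fold. The receptor for Cxcl13, Cxcr5, is not analysed here.

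**Figure D3:**
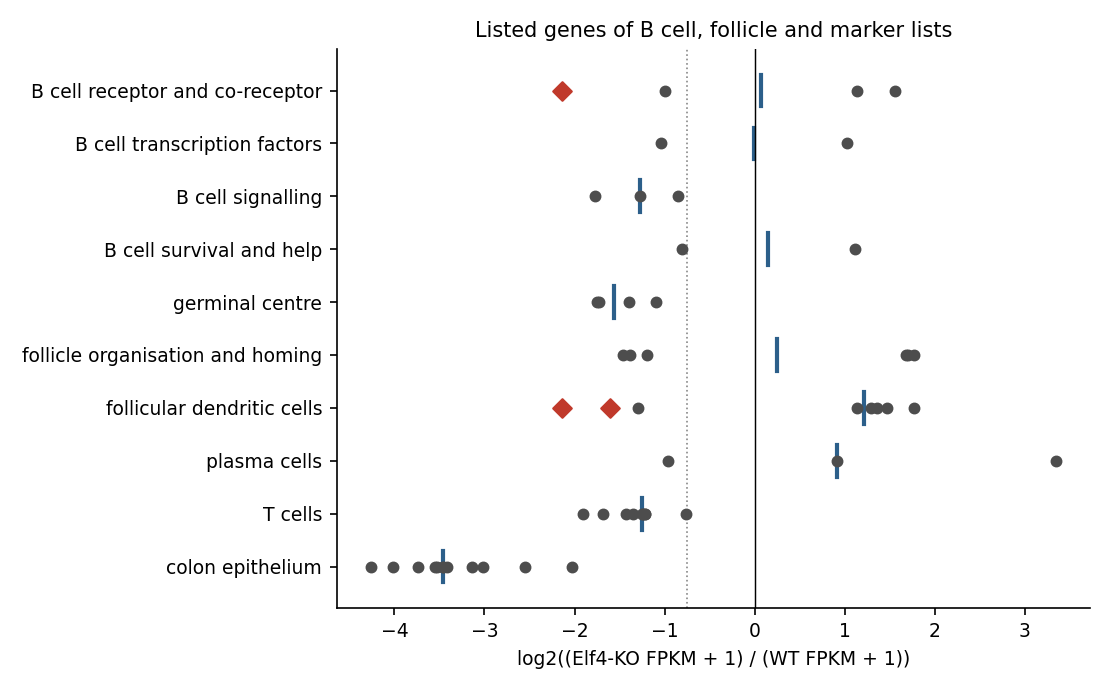
Each point is a listed gene of the list named at the left, placed by its log2 ratio of Elf4-KO over WT after adding 1 FPKM; red diamonds are Cr2 and Fcer2a, blue bars are list medians and the dotted line is the median of all listed genes, -0.76. Signalling, germinal centre, T cell and epithelial genes lie left of 0, whereas the other lists drawn have genes on both sides, and Ms4a1 is in none of the lists drawn.

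Since Cr2 and Fcer2a are also carried by follicular dendritic cells, 14 genes of those cells were read beside them. Of these, 8 were listed, 3 lower and 5 higher. Besides Cr2 and Fcer2a, Coch, chosen after its values were seen, was lower, with 0.811 FPKM in Elf4-KO colon and 3.43 FPKM in WT colon (q = 0.00184 by the authors' deposited table). Cxcl13, Fcgr2b, C4b, Enpp2 and Tnfsf11 were higher, with q = 0.00156 for Tnfsf11 by the authors' deposited table. Enpp2 had 48.4 FPKM in Elf4-KO colon and 16.9 FPKM in WT colon. These 5 genes are expressed by other stromal or myeloid cells as well. Which cells lost the Cr2 and Fcer2a transcripts was not measured.

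Most listed complement genes moved the other way from Cr2. Of 19 genes for complement fragments, their receptors and regulators, 8 were listed, 7 higher and 1 lower. Their median log2 ratio was 1.37. C3, the source of the fragments that the Cr2 product binds, had 276.9 FPKM in Elf4-KO colon and 127.8 FPKM in WT colon (q = 0.00184 by the authors' deposited table); it was chosen after its values were seen. C4b had 131.5 FPKM in Elf4-KO colon and 50.5 FPKM in WT colon. Cfd, a protease of the alternative pathway, rose 3.04-fold. The receptor genes C5ar1 and C3ar1 rose 5.20-fold and 2.79-fold. The regulator gene Cd55 fell 2.42-fold, with a locus in the table that reaches beyond the annotated gene.

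Around Fcer2a, 5 of 12 genes of IgE and CD23 biology were listed, 2 lower and 3 higher. Lgals3, a galectin that also binds IgE and is abundant in epithelium, fell 3.65-fold to 292 FPKM in Elf4-KO colon, against 1066 FPKM in WT colon. Fcer1g, the signalling chain of the high-affinity IgE receptor and of other Fc receptors, rose 2.26-fold to 382 FPKM in Elf4-KO colon, against 168.7 FPKM in WT colon. Itgam, an integrin chain of myeloid cells, rose 6.41-fold. The genes Il4, Il13 and Adam10, for cytokines of type 2 immunity and the protease that sheds CD23, are not in the table and not analysed here.

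Listed relatives of Ms4a1 moved in both directions. Of 21 genes of the family, 9 were listed, 3 lower and 6 higher. On chromosome 19, 7 were listed in a cluster, 3 lower and 4 higher. The nearest listed gene on the side of lower coordinates, Ms4a8a, fell 10.7-fold to 134 FPKM in Elf4-KO colon, against 1432 FPKM in WT colon. The nearest on the other side, Ms4a4a, which macrophages express, rose 7.23-fold to 194 FPKM in Elf4-KO colon, against 26.8 FPKM in WT colon. Ms4a4b, a gene of T cells, fell 2.73-fold, and Ms4a4d and Ms4a6d rose 2.73-fold and 3.85-fold.

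**Figure D4:**
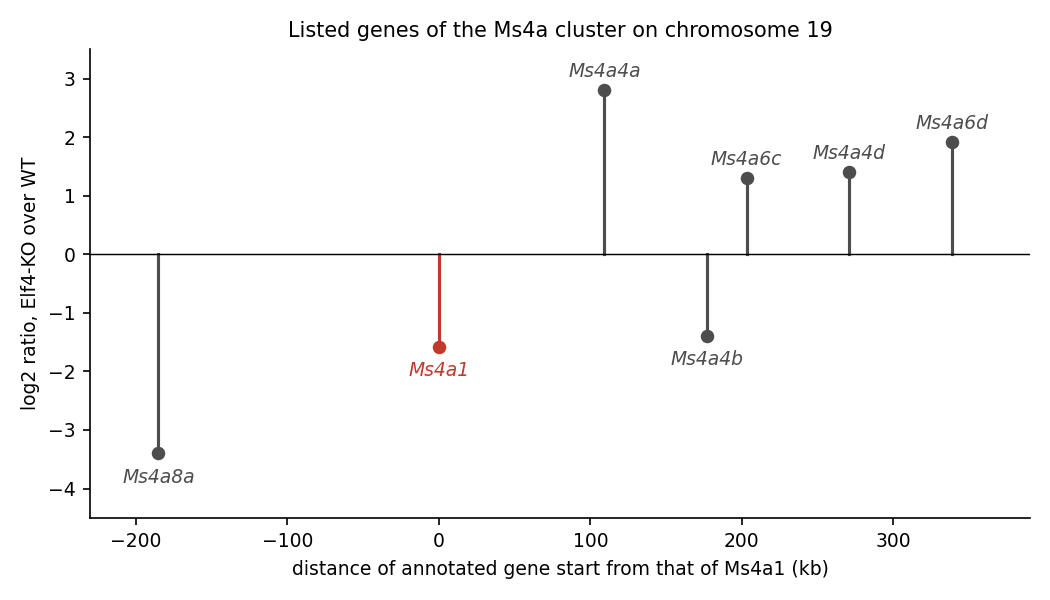
Lines show the log2 ratio of Elf4-KO over WT, after adding 1 FPKM, of listed Ms4a genes on chromosome 19 against the distance of their annotated start from that of Ms4a1, in kb. Ms4a1 (red, -1.58) lies between Ms4a8a, which is lower at -3.40, and Ms4a4a, which is higher at 2.81.

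The listed genes next to Cr2 and Fcer2a were higher in Elf4-KO colon. Cd34, whose locus in the table ends 44.6 kb from Cr2, rose 2.12-fold (q = 0.00156 by the authors' deposited table). That locus extends past the annotated gene toward Cr2 and overlaps Cd46, so its value is uncertain and the annotated gene lies farther away. No listed gene lay on the other side of Cr2 on its chromosome. Mcemp1, 12.5 kb from Fcer2a, rose 4.81-fold. Cd209b, 223 kb from Fcer2a on the other side, rose 8.40-fold to 1.10 FPKM in Elf4-KO colon, against 0.130 FPKM in WT colon (q = 0.0103 by the authors' deposited table).

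Plasma cells, into which B cells mature while losing CD20, were represented by 3 of 16 genes. Fkbp11 fell 2.02-fold (q = 0.0387 by the authors' deposited table), Prdm1, which drives plasma cell maturation, rose 2.04-fold (q = 0.00288 by the authors' deposited table), and the lambda constant segment Iglc1 rose 10.2-fold. Iglc1 shares its locus in the table with Iglv1. That locus reaches beyond the annotated gene and overlaps Iglc3, so its value is uncertain.

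Markers of other cells moved in the same tissue. The targeted gene Elf4 had 3.51 FPKM in Elf4-KO colon and 16.4 FPKM in WT colon, so 21.4% of the WT level was still counted. All 9 listed T cell markers of 16 were lower, with a summed level of 54.5 FPKM in Elf4-KO colon and 158 FPKM in WT colon. All 5 listed dendritic cell and class II genes of 12, several of which B cells express, were lower, at 1166 FPKM in Elf4-KO colon and 3279 FPKM in WT colon. All 12 epithelial markers of 12 were listed and lower, at 855 FPKM in Elf4-KO colon and 8838 FPKM in WT colon. Of 10 listed neutrophil markers of 13, 8 were higher, and Ly6g and Ltf were lower. The 10 summed to 4096 FPKM in Elf4-KO colon and 1196 FPKM in WT colon. Much of the WT sum came from Ly6g. Ly6g, chosen like Ltf after its values were seen, had 145.7 FPKM in Elf4-KO colon and 854.3 FPKM in WT colon. Of 8 listed genes of follicle-associated epithelium out of 10, 5 were higher and 3 lower. The 8 summed to 459 FPKM in Elf4-KO colon and 218 FPKM in WT colon. Most of the Elf4-KO sum came from the higher genes Ccl9, Tnfaip2 and Anxa5. Tnfrsf11b and Gp2 were higher too. Gp2, chosen after its values were seen, had 1.54 FPKM in Elf4-KO colon and 0.467 FPKM in WT colon (q = 0.0278 by the authors' deposited table). Anxa5, chosen after its values were seen, had 214.7 FPKM in Elf4-KO colon and 106.4 FPKM in WT colon (q = 0.000998 by the authors' deposited table). Tnfrsf11a fell to 6.25 FPKM in Elf4-KO colon, against 29.8 FPKM in WT colon, and Spib and Ccl20, given above, also fell. No listed marker in these lists was at 0. The summed level of the 3 B cell surface genes was 7.74 FPKM in Elf4-KO colon and 32.5 FPKM in WT colon. The part that these shifts in tissue make-up have in the falls of Cr2, Fcer2a and Ms4a1 was not tested.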

How the data were processed

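RNA sequencing of 2 Elf4-KO and 2 WT colon samples was deposited as a single table. Per the file headers, the authors' FPKM values are 1 per gene and genotype, and the labels do not say how both samples were combined. Each p-value and q-value stems from the authors' own comparison, per the file headers. Bowtie 0.12.2, Cufflinks 2.2.1 and the build mm8 appear in the submitters' processing notes, without roles. Of 4121 gene identifiers, 4116 were found in GENCODE M21 on GRCm38. After adding 1 to the start, 77.5% of these had the annotated start, and 76.8% had the annotated end. Coordinates are therefore given on GRCm38, counting from 1.

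Log2 ratios of Elf4-KO over WT were computed after adding 1 FPKM, and folds from FPKM alone. The authors' log2 column was not used. Without values per sample, no test, SD or interval could be computed, and depth is unknown. The library kit was a Vazyme mRNA kit, per the labels' protocols.

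The members and 16 gene lists were chosen with earlier results of these data known. Genes named were the members, Elf4, in each list every listed gene up to 6 or the 6 with the largest absolute log2 ratio, the 3 nearest genes in level, and chromosomal neighbours. Some of the genes so chosen are counted but not reported here. Markers of T cells, dendritic cells, neutrophils, epithelium and follicle-associated epithelium are given as sums. The neutrophil genes Ly6g and Ltf, chosen after their values were seen, and some follicle-associated epithelium genes are also named. The germinal centre list held 1 further name that is not a gene symbol and was dropped. Alternatives were other pseudocounts, centring, and stricter limits on q, fold and FPKM. The computations were tested on simulated data. Python 3.11.15, numpy 2.4.6, pandas 2.3.3 and matplotlib 3.10.9 were used.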

Additional observations from a re-analysis of the deposited data

How the results depend on the processing

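No paired analysis was possible because both samples of a genotype share 1 deposited value, and leaving out each sample could not be run for the same reason. Shifts were judged against a factor of 1.5, since no spread between replicates can be had. Another pseudocount cannot turn the direction of a ratio, so only centring could have done so. It turned none of Cr2, Fcer2a and Ms4a1. The log2 ratios of Cr2 and Fcer2a were -2.73 and -2.32 with a pseudocount of 0.1 FPKM, and -2.82 and -2.46 with none, since 1 FPKM is near their Elf4-KO levels. Centred on the median of all listed genes, -0.76, Cr2, Fcer2a and Ms4a1 had -1.38, -0.85 and -0.83. With at least a 4-fold difference 2 of the 3 genes were left, Ms4a1 being dropped, and with at least 5 FPKM in the higher genotype 2 were left, Fcer2a being dropped. Of the B cell list genes, 7 lower and 4 higher, q of at most 0.01 left 4 lower and 4 higher, and a 4-fold difference left 1 lower, Cr2, and 0 higher. Over the whole table the 4-fold limit left 1011 lower and 533 higher genes. The other 22 of 34 alternatives stayed within 1.5 times. The number of reads behind any value, such as the 0.842 FPKM of Fcer2a in Elf4-KO colon, is unknown.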
